A study of Mus musculus with 7 samples.

Results

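The voltage-gated sodium and calcium channels of the mouse forebrain were described here through the genes of their subunits. The members were the protein-coding genes whose symbol begins with Scn and a number followed by a or b, with Cacna1, with Cacna2d, or with Cacnb1 to Cacnb4. The 29 genes described here, of the 47729 in the count table, comprise 8 that encode sodium channel alpha subunits, 3 sodium channel beta subunits, 10 calcium channel alpha1 subunits, 4 alpha2delta subunits and 4 calcium channel beta subunits. RNA had been taken from the forebrain of mice at postnatal day 15 and sequenced, in 4 pools from Lhx6+/- animals (control) and 3 pools from Lhx6-/- animals (mutant), to ask which genes differ in a brain that lacks Lhx6. Lhx6 is the transcription factor that MGE-derived cortical interneurons (CIs) need for their development. Each pool held 2 animals of the strain F1(C57BL/6 X 129Sv), and the allele was Lhx6tm2Vpa. Both groups carried the allele in the germline, in every cell, so the controls had 1 mutant copy and no pool was wild-type. Pools were of males, of females or of both, with RNA integrity numbers of 9 to 10 in controls and 9.8 to 10 in mutants, but the columns of the table name only the genotype and a library number, so sex and RNA quality could not be joined to a library.

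Sodium and calcium channels of this superfamily open when the membrane depolarises. The alpha or alpha1 subunit forms the pore and senses voltage, and sets the type of current. Sodium channel beta subunits are small membrane proteins that tune gating and help to hold the channel at the cell surface, the cytoplasmic calcium channel beta subunit carries the alpha1 subunit to the membrane and shapes its gating, and alpha2delta is a largely extracellular subunit that promotes trafficking and is the target of the gabapentinoid drugs. Neurons use the sodium channels to start and carry action potentials, and the calcium channels to release transmitter, to fire in bursts and to pass activity on to the nucleus.

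The libraries held between 32556304 and 38069151 expected counts, with normalization factors between 0.976 and 1.03. Lhx6 itself fell from 533.9 ± 58.5 (SD, n = 4) normalized counts in controls to 72.5 ± 3.55 (SD, n = 3) in mutants. The first principal component over all genes tested, with 39.6% of the variance, did not separate the genotypes. It held libraries 2, 3 (both control) and 5 (mutant) apart from libraries 10 and 11 (control) and 12 and 13 (mutant). The second, with 23.4%, separated the genotypes, with all controls on the positive and all mutants on the negative side. Values within each of these runs of library numbers, which carry no test, are given for the members that passed and for some of the others, and 22 of the 28 members tested had the same sign in both. Control library 3 was the lowest control for 16 of the 28 members tested, and all 16 were among the 21 members with a mean of 1000 normalized counts or more. Neither this count nor that of equal signs in both runs is given over all genes. They therefore cannot tell a trait of the channel genes from one of the libraries. Among those 21 members the median coefficient of variation was 13.5% over controls and 6.58% over mutants, against 10.3% and 7.11% over the 6730 genes of the same abundance. Of the labelled tissue, markers of cortical excitatory and striatal projection neurons were present in every library. The lateral hypothalamic marker Hcrt and the pituitary hormone Prl had at most 3 counts, whereas Gh, the other pituitary marker, reached 31.3 normalized counts in mutant library 13, 25.9 in mutant library 5 and 15.4 in control library 10.

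A normalized count is a count scaled to the mean effective library size, and library values below are in the order control 2, 3, 10 and 11, then mutant 5, 12 and 13. Of the 29 members, 28 had enough counts for edgeR's quasi-likelihood test and 4 passed an adjusted p of 0.05 over all genes tested, which is 14.3% of the members tested, where 4.85% of all 19684 genes passed. Scn7a was higher in mutants, in which direction 2.97% of all genes passed, and Scn3b, Cacnb3 and Cacna1i were lower, where 1.87% passed. Of the 21 abundant members 3 passed, all lower in mutants. Of the genes of that abundance, 3.03% were lower, 2.63% higher and 5.66% past the threshold in either direction. DESeq2 called 2 members higher, Scn7a and Cacna1a, where it called 5.09% of all genes, and 6 lower, where it called 3.70%. With the run of library numbers in edgeR's fit 1 was higher and 6 lower, against 6.16% and 5.04% of all genes. In both of these the members added to the lower ones were Scn2b, Scn9a and Cacna2d2. In 8 of the 28 members tested the 2 genotypes did not overlap, against 19.7% of all genes tested. These were 3 members with all mutants above (10.7% of all genes tested) and 5 with all mutants below (9.00%). Scn4a, which was too low to be tested, also had all mutants above. An unadjusted p of at most 0.05 was reached by 9 members, and by 18.2% of all genes. The median log2 difference over the members was -0.07, with 11 above and 17 below 0, and it was -0.01 over all genes. In 15 members the fitted log2 difference was smaller than 0.2 in size.

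**Figure D1:**
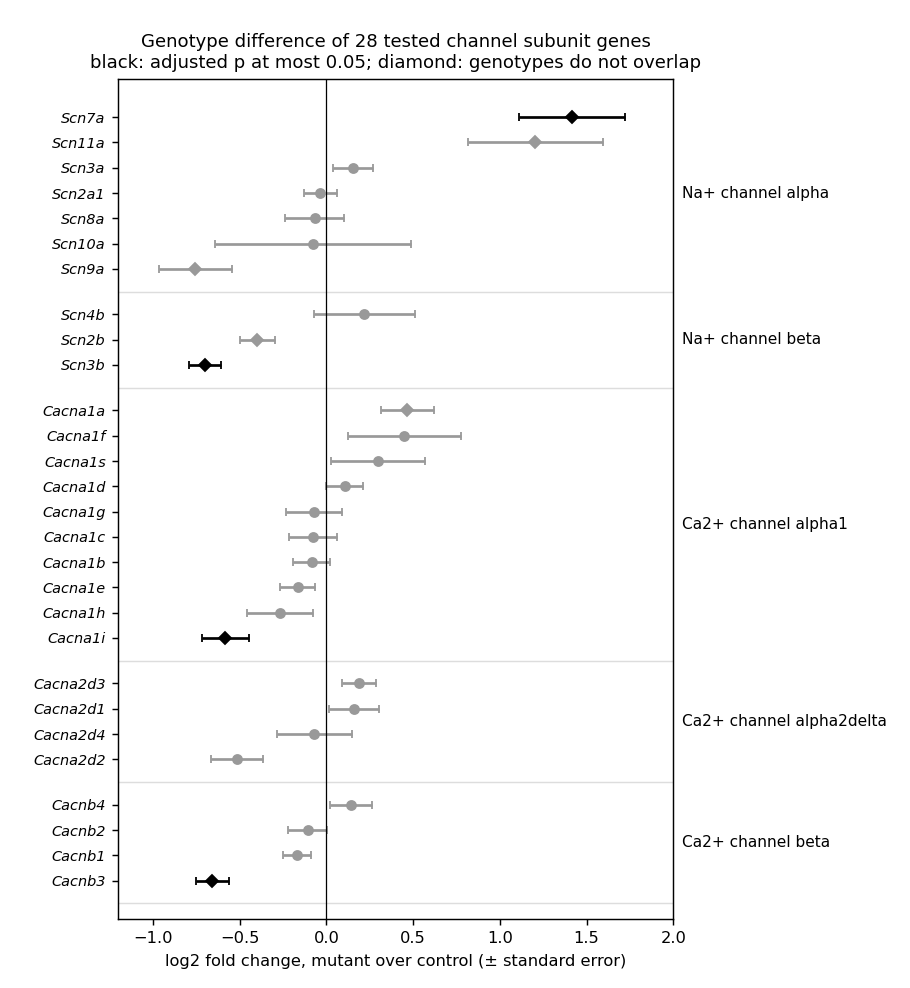
The log2 difference between mutants and controls is plotted for the 28 members tested, by subunit class, with error bars of 1 SE from edgeR black points for the 4 members past an adjusted p of 0.05 and diamonds where the genotypes do not overlap. Scn7a (1.42) lies furthest to the side of the mutants, Scn3b (-0.70), Cacnb3 (-0.66) and Cacna1i (-0.58) lie on the other side, and most others sit near 0.

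The members lie on 11 chromosomes, 7 of them on chromosome 2 and 6 on chromosome 9, and span from 12.2 kb (Scn2b) to 816.9 kb (Cacna2d3). Scn3a, Scn2a1, Scn9a and Scn7a lie close together on chromosome 2, and of these Scn7a alone passed the test. Scn10a and Scn11a lie side by side on chromosome 9, with 34.7 kb between them, and neither passed. The RefSeq table used here held promoter windows for 23 members, 33 windows in all, each of 246 bases from 250 to 5 bases before a start of transcription. They had a median GC content of 56.1% and 9 CpGs, where all 32851 windows had 52.0% and 5. The GC box (GGGCGG on either strand) stood in 39.4% of the members' windows and 32.2% of all windows. The core of the cAMP response element (TGACG on either strand) stood in 18.2% and 17.4%. The homeodomain core TAATTA, the kind of letters that LIM homeodomain proteins such as Lhx6 bind, stood in 0 of 33 windows and in 4.81% of all, and CCAAT on either strand in 18.2% and 33.6%. These counts describe letters in short windows and say nothing of binding. The windows of 3 of the 4 members that passed the test are printed, to show the letters counted. They had 70.7% GC and 23 CpGs at the second start of Cacnb3, 63.4% and 16 at Cacna1i and 53.7% and 3 at Scn7a, and the other start of Cacnb3, not printed, had 55.7% and 2. Capitals mark the GC box in Cacnb3 and Scn7a and the core of the cAMP response element in Cacna1i. All are in GRCm38.p6, 5′ to 3′ on the strand of the gene.
Cacnb3, the second of 2 starts, chr15:98634517-98634762, plus strand: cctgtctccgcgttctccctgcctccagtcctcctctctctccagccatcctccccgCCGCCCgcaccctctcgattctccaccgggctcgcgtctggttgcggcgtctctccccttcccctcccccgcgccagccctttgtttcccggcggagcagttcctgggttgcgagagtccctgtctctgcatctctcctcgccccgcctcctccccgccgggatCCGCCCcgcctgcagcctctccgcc
Cacna1i, chr15:80286988-80287233, plus strand: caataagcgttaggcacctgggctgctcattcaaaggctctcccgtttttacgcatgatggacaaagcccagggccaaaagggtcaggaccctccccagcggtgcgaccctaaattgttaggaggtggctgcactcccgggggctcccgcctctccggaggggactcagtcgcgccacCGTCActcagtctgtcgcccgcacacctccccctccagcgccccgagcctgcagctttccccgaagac
Scn7a, chr2:66784915-66785160, minus strand: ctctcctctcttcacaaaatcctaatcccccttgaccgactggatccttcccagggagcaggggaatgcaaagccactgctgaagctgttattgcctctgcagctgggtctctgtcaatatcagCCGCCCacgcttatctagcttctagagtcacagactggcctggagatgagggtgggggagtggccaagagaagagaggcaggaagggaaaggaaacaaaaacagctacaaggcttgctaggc

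Among the pore-forming sodium channel genes, the abundant neuronal members did not pass the test, and the member that rose, Scn7a, was at low level. Levels of different genes are compared per length, as counts per kilobase of exon per 1000000 counts. On this scale Scn2a1, an alpha subunit of axons and axon initial segments (its current symbol is Scn2a), stood at 26.5 ± 2.16 (SD, n = 4) in controls, and Scn8a, the alpha subunit of mature nodes of Ranvier and initial segments, at 24.5 ± 4.88. The gap between this pair was smaller than their spread. Scn3a, most abundant in the developing brain, stood at 3.64, and each of the other 5 alpha genes was below 0.5. Normalized counts of Scn2a1 were 12075, 10654, 12891 and 12522 in controls and 10944, 12490 and 11822 in mutants, a log2 difference of -0.03 (SE 0.0937, edgeR adjusted p = 0.903). Those of Scn8a were 12372, 10663, 15477 and 16606 in controls and 10889, 15031 and 13526 in mutants, at -0.07 (SE 0.171, edgeR adjusted p = 0.893). The ranges of the 2 genotypes overlapped for both genes, and library 3 was lowest among the controls for both. Scn3a, with 1304.5 to 1779 in controls and 1673.5 to 1896 in mutants, did not pass either (log2 0.15, edgeR adjusted p = 0.558).

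Scn7a encodes an atypical alpha subunit that responds to extracellular sodium rather than to voltage, known from glia of the sodium-sensing organs of the brain and from peripheral glia. It had 35.1, 49.2, 57.6 and 61.0 normalized counts in controls and 96.8, 204.9 and 106.0 in mutants. The genotypes did not overlap, and mutant library 12 was the highest by a wide margin. The log2 difference was 1.42 (SE 0.305, edgeR adjusted p = 0.0350) and fell to 1.00 without mutant library 12 (edgeR adjusted p = 0.113). It kept its sign in every alternative, but was past the threshold in 6 of 13 only, over a range of adjusted p of 0.000724 to 0.113. It was lost with limma-voom (adjusted p = 0.0518), and in edgeR without control library 2 (adjusted p = 0.0747), 3 (0.0686), 10 (0.0763) or 11 (0.0616) and without mutant library 13 (0.0760). Within the runs it was 1.20 and 1.30. Of the markers of astrocytes, all 6 had a positive log2 difference, 1 passed the test (Gfap, log2 1.95) and their summed level per length was 536.6 to 735.2 in controls and 918.8 to 1047.5 in mutants. Their part in the difference of Scn7a was not tested. In RNA of a whole forebrain, a change in the number of cells of a type and a change in the RNA per cell cannot be told apart.

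The alpha subunits of nociceptive and other sensory neurons, Scn9a, Scn10a and Scn11a, were at low level, and none passed edgeR's test. Scn9a had 66.9, 82.4, 104.6 and 103.7 normalized counts in controls and 55.6, 55.9 and 47.3 in mutants. Of its words of 36 bases, the length of a read, 5.42% were shared with other genes. The effect of such reads on its count was not tested. All 3 mutant libraries were below all 4 controls, with a log2 difference of -0.76 (SE 0.211, edgeR adjusted p = 0.0859). It passed by DESeq2 (adjusted p = 0.0414) and with the run of library numbers in edgeR's fit (adjusted p = 0.0353), and the difference was -0.41 in libraries 2, 3 and 5 and -1.003 in libraries 10 to 13. Scn11a had 4.39, 13.1, 9.59 and 8.13 normalized counts in controls and 23.9, 19.7 and 18.0 in mutants. These genotypes did not overlap in the other direction, at 4 to 13 raw counts against 19 to 25, and the log2 difference of 1.21 did not pass (SE 0.390, edgeR adjusted p = 0.137). Scn10a had 4 to 20 raw counts in controls and 9 to 11 in mutants. Scn4a, the alpha subunit of skeletal muscle, had 3, 1, 1 and 2 raw counts in controls and 6, 4 and 10 in mutants and was too low to be tested. None of the 3 sensory neuron markers tested passed in edgeR (2 had an unadjusted p of at most 0.05), and of the 3 skeletal muscle markers tested 1 was lower in mutants (Myh4, log2 -1.71).

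**Figure D2:**
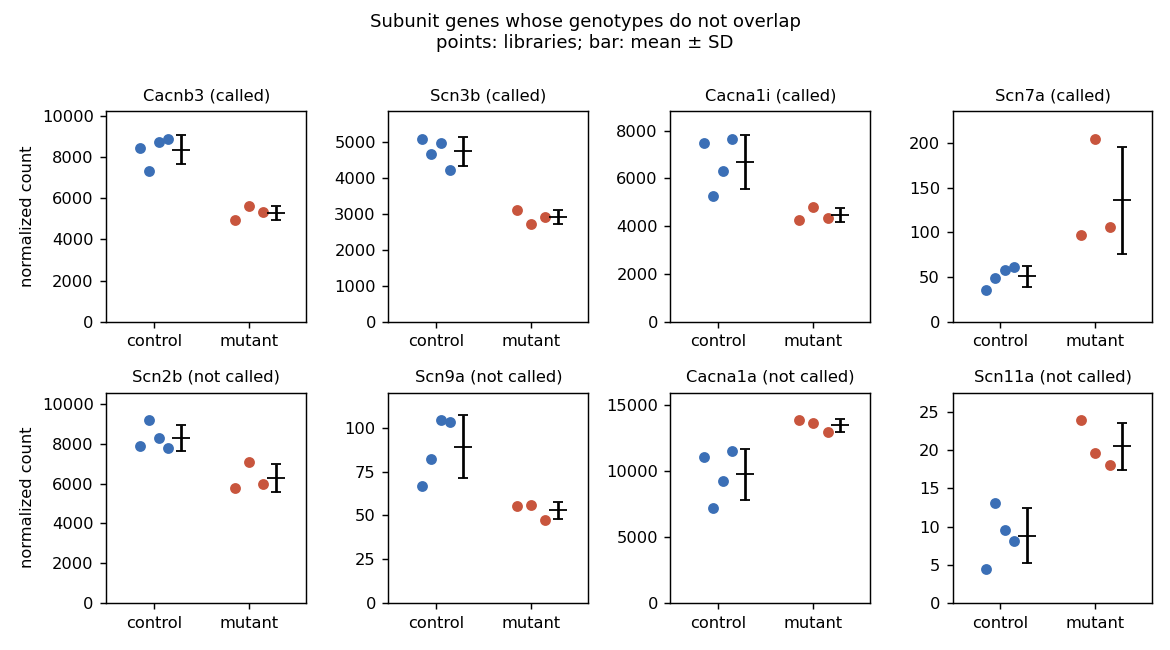
Normalized counts of the 8 tested members whose genotypes do not overlap are plotted on linear axes from 0, with blue points for the 4 control and red points for the 3 mutant libraries and a bar for the mean ± SD. Cacnb3, Scn3b and Cacna1i are lower in all mutants and Scn7a is higher, all marked as called, while mutant library 12 (204.9) stands apart for Scn7a and Scn2b, Scn9a, Cacna1a and Scn11a did not pass the test.

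Of the 3 sodium channel beta genes, 2 had a log2 difference below 0, and 1 of these passed the test. Scn3b encodes a beta subunit that binds the alpha subunit without a covalent bond. It had 5092, 4654.5, 4974 and 4216 normalized counts in controls and 3111, 2720 and 2903 in mutants. The lowest control stood over 1000 counts above the highest mutant, and the mutant mean was 61.5% of that of controls (4734 ± 391.7, SD, n = 4, against 2911.5 ± 195.8, SD, n = 3). The log2 difference was -0.70 (SE 0.0928, edgeR adjusted p = 0.00499). Scn3b was past the threshold in 13 of 13 alternatives (adjusted p from 2.61e-10 to 0.0337), with -0.65 and -0.70 within the runs. The gene lies on chromosome 9 at 40269216 to 40291618, away from the other sodium channel genes of that chromosome.

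Scn2b, a beta subunit bound to the alpha subunit by a disulfide bridge, had 7891, 9206, 8292 and 7795.5 normalized counts in controls and 5795.5, 7096 and 6002 in mutants. The genotypes did not overlap either, but the log2 difference of -0.40 (SE 0.102, edgeR adjusted p = 0.0665) missed the threshold. It passed by DESeq2 (adjusted p = 0.00691) and with the run of library numbers in edgeR's fit (adjusted p = 0.0335), and the difference was -0.56 and -0.30 within the runs. Scn4b lies 8.37 kb from Scn2b, encodes the other disulfide-bound beta subunit and is abundant in striatal projection neurons and in neurons that fire fast. Its values spread widely within both genotypes, with 1745, 2583, 2282.5 and 3829 normalized counts in controls and 1917, 3878 and 3314 in mutants (log2 0.22, edgeR adjusted p = 0.777, with -0.15 and 0.28 within the runs). Its coefficient of variation was 33.8% over controls and 33.3% over mutants. Summed levels of the 7 markers of striatal projection neurons also spread, from 131.7 to 201.9 in controls and from 215.7 to 306.6 in mutants, with 1 of 7 past the threshold (Penk, log2 1.20). Their part in the values of Scn4b was not tested.

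Per length, Scn2b stood at 51.0 in controls and 38.7 in mutants, Scn3b at 23.9 and 14.7, and Scn4b at 14.8 and 17.2. Scn3b was above Scn4b in the mean of controls and below it in the mean of mutants. The order was the other way in control library 11 (21.3 against 21.7) and in mutant library 5 (15.7 against 10.9). With the longest transcript as length Scn3b stayed above Scn4b in the mean of mutants too, at 18.1 against 17.2. These levels are given as a description with no test.

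Of the 10 calcium channel alpha1 genes, 4 had a log2 difference above and 6 below 0, and 1 passed the test. Cacna1a, the pore of the P/Q-type channel that drives transmitter release at most fast central synapses, had the highest control level per length of the class (23.9). It had 11018.5, 7215, 9225 and 11514 normalized counts in controls and 13859, 13615 and 12928 in mutants. Every mutant was above every control, but the controls spread widely around library 3, and the log2 difference of 0.47 (SE 0.152) did not pass in edgeR (adjusted p = 0.138). Over the alternatives the adjusted p went from 0.0356, by DESeq2, to 0.309, and the difference was 0.64 and 0.36 within the runs. As a share of the summed level per length of the 10 alpha1 genes, Cacna1a stood at 21.70% to 24.23% in controls and 31.96% to 32.73% in mutants. Cacna1b, the N-type pore of presynaptic terminals, had 6722, 5228, 5774 and 6652 normalized counts in controls and 5977.5, 5884 and 5384 in mutants, with overlap (log2 -0.08, edgeR adjusted p = 0.764). Cacna1e, the R-type pore, stood at log2 -0.17 (edgeR adjusted p = 0.452).

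Of the T-type channels, which open near the resting potential and support burst firing, Cacna1i passed the test and was lower in mutants. Cacna1i (ENSMUSG00000022416, chromosome 15, 80287238 to 80398279, plus strand) had 7497, 5257, 6292 and 7669.5 normalized counts in controls and 4259, 4784 and 4329 in mutants. All mutants were below all controls, and control library 3 and mutant library 12 were nearest to each other. The mutant mean was 66.7% of that of controls, at a log2 difference of -0.58 (SE 0.137, edgeR adjusted p = 0.0484). This call lay close to the threshold. It held in 6 of 13 alternatives, was lost with limma-voom (adjusted p = 0.0518), and in edgeR was lost without control library 2 (adjusted p = 0.0993), 10 (0.0881) or 11 (0.101) and without mutant library 5 (0.153), 12 (0.116) or 13 (0.188). Without control library 3 the adjusted p was 0.0123, and over all alternatives it ran from 0.00117 to 0.188. The difference was -0.56 and -0.61 within the runs. As a share of the alpha1 genes, Cacna1i went from 18.3% ± 0.235 (SD, n = 4) to 12.4% ± 0.798 (SD, n = 3), and from rank 2 to rank 3 behind Cacna1b. With the longest transcript as length it went from rank 3 to rank 5, behind Cacna1a, Cacna1e, Cacna1b and Cacna1g. Shares within a class are tied to each other, and they are given as a description with no test. The other T-type genes had log2 differences of -0.07 (Cacna1g, edgeR adjusted p = 0.878) and -0.27 (Cacna1h, edgeR adjusted p = 0.534), and whether Cacna1i differed from them was not tested.

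Among the L-type pores, Cacna1c and Cacna1d, which link activity to transcription in neurons, had log2 differences of -0.08 and 0.10, and within the runs Cacna1c stood at 0.12 and -0.19. Cacna1f, the L-type pore of photoreceptors, and Cacna1s, that of skeletal muscle, were at means of 15.6 and 34.4 normalized counts in controls and 21.3 and 42.3 in mutants. None of these 4 passed the test. For Cacna1s, 20.0% of the exonic bases overlap other genes, and since the strand used in counting was not given, its reads cannot be assigned to it alone.

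**Figure D3:**
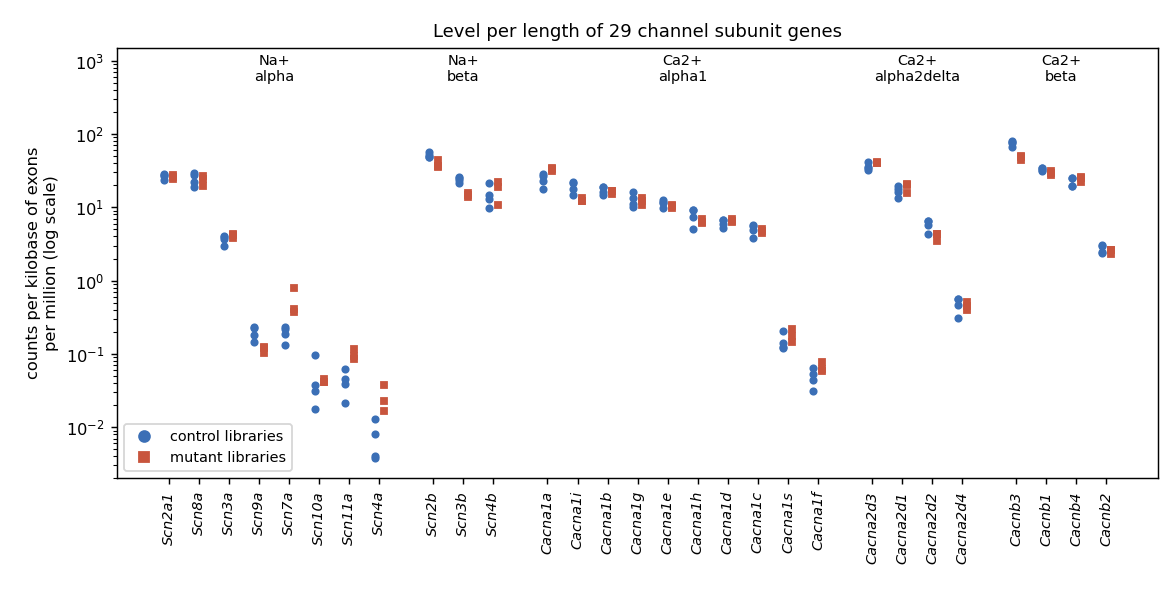
The level per length (counts per kilobase of exon per 1000000 counts, log axis) of the 29 members is plotted by library, with controls as circles and mutants as squares, in order of the control mean within each class. Cacnb3 (75.2 in controls) is the highest, the 4 calcium channel beta genes lie above 1, and the sensory and muscle genes Scn10a, Scn11a, Scn4a and Cacna1f lie below 0.1 on average in controls.

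Auxiliary subunits of the calcium channel were headed by Cacnb3, with a control level per length of 75.2, the highest of the members described here. Cacnb3 (ENSMUSG00000003352, chromosome 15, 98632220 to 98644530, plus strand) encodes a neuronal beta subunit that partners N-type and L-type pores. It had 8452, 7344, 8752 and 8906 normalized counts in controls and 4928, 5619 and 5352 in mutants. The genotypes stood far apart, with the mutant mean at 63.4% of that of controls (8364 ± 705.5, SD, n = 4, against 5299.5 ± 348.7, SD, n = 3). The log2 difference was -0.66 (SE 0.0956, edgeR adjusted p = 0.00737). Cacnb3 was past the threshold in 13 of 13 alternatives, with adjusted p from 6.37e-09 to 0.0460, and the difference within the runs was -0.68 and -0.69.

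The other beta genes did not pass. Cacnb1, which is also the beta subunit of skeletal muscle, had 5585.5, 5016, 5203 and 5574 normalized counts in controls and 5022, 4804 and 4453 in mutants (log2 -0.17, edgeR adjusted p = 0.328). Cacnb4, whose loss causes epilepsy and ataxia in the lethargic mouse, was at 0.14 (edgeR adjusted p = 0.630), with 16.0% of its exonic bases overlapping other genes, and Cacnb2, the main beta subunit of the heart, at -0.11. In the make-up of the class, Cacnb3 went from 56.5% ± 0.762 (SD, n = 4) to 45.8% ± 1.25 (SD, n = 3) of the summed level per length, Cacnb1 from 24.9% to 28.4% and Cacnb4 from 16.6% to 23.4%. The sum over the class was 118.8 to 142.4 in controls and 99.8 to 107.9 in mutants, without overlap. Most of this difference lay in Cacnb3, whose mean level per length was 75.2 in controls and 47.6 in mutants. The means of the class sum were 133.1 and 104.0. Cacnb1, Cacnb2 and Cacnb4 each overlapped between genotypes, so the sum does not show a fall of the class as a whole. The sums of the other calcium channel classes overlapped between genotypes, as for the alpha1 genes with 81.6 to 117.5 in controls and 97.0 to 105.4 in mutants. The sum over the 3 sodium channel beta genes described here did not overlap, at 84.2 to 94.7 in controls and 62.2 to 79.4 in mutants.

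**Figure D4:**
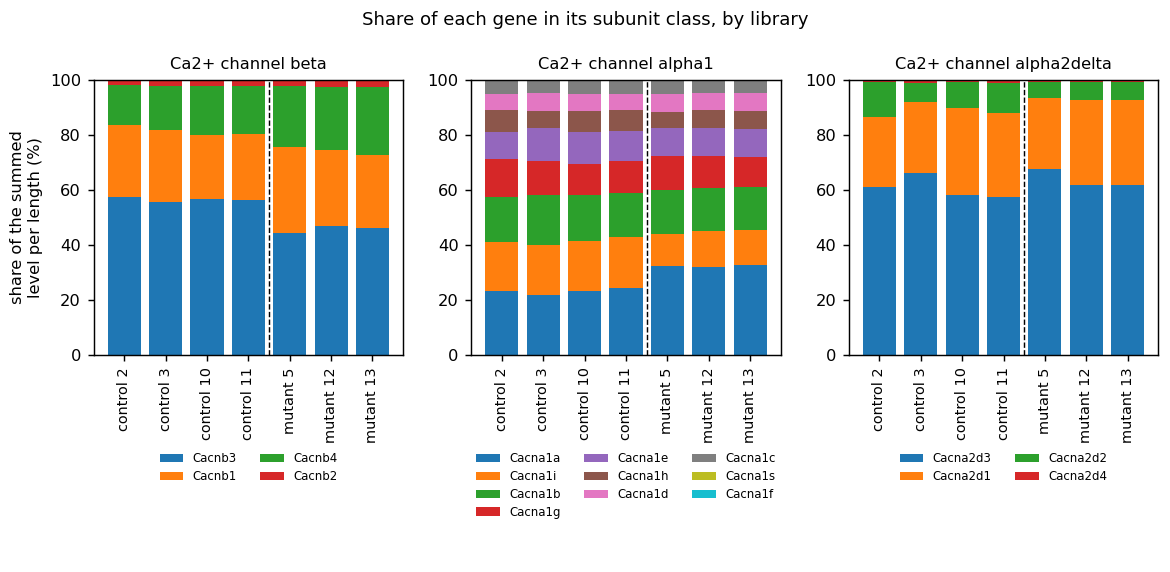
Stacked bars give each gene's share (percent) of the summed level per length of its class in each library, for calcium channel beta, calcium channel alpha1 and alpha2delta genes, with a dashed line between controls and mutants. Cacnb3 makes up about 56.5% of the beta class in controls and 45.8% in mutants, and Cacna1a makes up 23.0% and 32.3% of the alpha1 class.

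None of the 4 alpha2delta genes passed edgeR's test, and 1 (Cacna2d2) had an unadjusted p of at most 0.05. Cacna2d3 was the highest of them per length (35.6 in controls), with 4242, 5472, 4610 and 4462 normalized counts in controls and 5367, 5456 and 5241 in mutants (log2 0.19, edgeR adjusted p = 0.365). Cacna2d1, the best studied target of gabapentin, had 5993.5, 7255.5, 8550 and 7959 in controls and 6855, 9203 and 8826 in mutants (log2 0.16, edgeR adjusted p = 0.658). For both genes the genotypes overlapped. Cacna2d2, the other gabapentin-binding subunit, had 1867, 1240, 1624 and 1841 normalized counts in controls and 993.4, 1244 and 1213 in mutants. Its genotypes overlapped through control library 3 and mutant library 12 alone, and the log2 difference was -0.51 (SE 0.151, edgeR adjusted p = 0.102). Without control library 3 it passed (edgeR adjusted p = 0.0204), as it did by DESeq2 (adjusted p = 0.0222) and with the run of library numbers in edgeR's fit (adjusted p = 0.0321). Cacna2d4, known from photoreceptors, had a mean of 160.1 normalized counts in controls and 152.5 in mutants.

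The 3 members that were lower in mutants stood beside lower levels of markers of MGE-derived interneurons and of oligodendrocytes. Of the 8 MGE markers, 6 passed the test and were lower, and their summed level per length was 272.5 to 354.2 in controls and 50.4 to 54.6 in mutants. Of the 4 oligodendrocyte markers, 2 (Mbp and Mag) were lower, with sums of 796.6 to 1082 and 586.9 to 745.1. The 7 markers of CGE-derived interneurons moved the other way, with 4 higher and sums of 49.2 to 64.2 in controls and 83.1 to 106.3 in mutants. None of the defining markers of these lists was at 3 counts or fewer in every library. Their part in the differences of Scn3b, Cacnb3 and Cacna1i was not tested.

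Proteins that bind or regulate these channels were counted over a list of 39 genes, of which 38 were tested. Of these, 3 rose and 2 fell, where 2.97% and 1.87% of all genes did so. Their log2 differences were above 0 in 15 and below 0 in 23, with a median of -0.07. Stac2 encodes an adaptor that binds L-type channels and slows their inactivation. It had 1606, 1340, 1638 and 1687 normalized counts in controls and 3297, 3263 and 2982 in mutants, without overlap, at a log2 difference of 1.02 (SE 0.0942, edgeR adjusted p = 0.000859). Cacng5, of the gamma family that mainly accompanies AMPA receptors in the brain, had 544.0, 400.7, 497.0 and 506.2 in controls and 1028, 1173 and 1149.5 in mutants, again without overlap (log2 1.20, SE 0.118, edgeR adjusted p = 0.00128). Both were past the threshold in 13 of 13 alternatives.

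Rrad, an RGK small GTPase that binds calcium channel beta subunits and inhibits the channel, also rose, from 58.5 ± 16.3 (SD, n = 4) to 128.4 ± 28.1 (SD, n = 3) normalized counts (log2 1.13, edgeR adjusted p = 0.0424). All 4 genes of its family had a positive difference, and the other 3 did not pass. Fgf13, a fibroblast growth factor homologous factor that binds the tail of sodium channel alpha subunits, fell from 6693 ± 624.0 (SD, n = 4) to 4815 ± 108.0 (SD, n = 3), without overlap (log2 -0.47, edgeR adjusted p = 0.0240). Cacng3 fell from 4458 ± 188.6 (SD, n = 4) to 3433 ± 258.0 (SD, n = 3) (log2 -0.38, edgeR adjusted p = 0.0355). Leaving out 1 library ended the call of Fgf13 with any library but control libraries 3 and 11 (adjusted p of 0.0555 to 0.111), that of Cacng3 with any but control library 3 (0.0703 to 0.172), and that of Rrad with any but control library 2 (0.0525 to 0.140). In edgeR none of the 6 scaffold genes of the axon initial segment and node passed (1 had an unadjusted p of at most 0.05), and none of the 5 calcium sensors (2 did).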

How the data were processed

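Forebrain RNA of 4 control and 3 mutant pools was sequenced as reads of 36 bases, and the authors deposited expected counts per gene and library, made with Bowtie2 2.2.9 and RSEM 1.2.31 after trimming with cutadapt 1.9.1 (tools per the submitters' notes; Ensembl release 84, GRCm38). The strand setting of the counting was not given in the sources used here. The deposited comparison table of the authors (DESeq2 fold changes and p-values) was used for gene symbols only. The columns name genotype and library number, and 0 columns of values were left unused.

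Expected counts were rounded. A gene was tested where 3 or more libraries held 10 counts or more, with edgeR 4.0.16 (R 4.3.3; TMM, quasi-likelihood F-test, two-sided, 7 libraries, no covariate), with Benjamini-Hochberg adjustment over the 19684 genes tested and a threshold of 0.05. The SE is the size of the log2 difference over the root of F. Alternatives were RLE normalization, DESeq2 1.42.0, limma-voom (limma 3.58.1), 2 other filters, a covariate for the run of library numbers, and 7 fits that each leave out 1 library. A run on simulated data was also made, but its outcome is not given here and nothing above rests on it. Where nothing says that pools were processed apart, p-values measure the spread between these pools only. A limit of 3 counts corresponds to 0.0788 to 0.0921 CPM, and intervals of that kind cover counting error only. Levels per length used the union of a gene's exons, or its longest transcript as an alternative. Promoter windows are RefSeq's for GRCm38.p6. Replicate libraries differed by more than counting noise, with a chi-square per degree of freedom of 9.96 to 70.8.

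Every member was accounted for. Library values are given for members that passed the test or whose genotypes did not overlap, and for the most abundant members of each class and those next in order, and of the partner genes those that passed are named. Cacna2d2, Scn4b and the marker genes Gfap, Penk, Myh4, Mbp and Mag were chosen after their values were seen. Members and lists were chosen with earlier results of these data known. 3 genes of the symbol pattern are not reported here.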

Additional observations from a re-analysis of the deposited data

How the results depend on the processing

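No paired analysis was possible because the columns of the count table carry a genotype and a library number but no replicate number shared between the genotypes. Members higher in mutants numbered 1, and 2 with DESeq2, 0 with limma-voom (Scn7a, adjusted p = 0.0518) and 0 to 1 with 1 library left out. Members lower numbered 3, and 6 with DESeq2, 6 with a covariate for the run of library numbers, and 2 to 4 with 1 library left out. With limma-voom they numbered 2, as Cacna1i was lost (adjusted p = 0.0518). Partner genes higher numbered 3, and 6 with the run as a covariate and 2 to 3 with 1 library left out. Partner genes lower numbered 2, and 3 with DESeq2, 3 with the run as a covariate, 1 with no filter on low counts and 0 to 2 with 1 library left out. The cause of these moves was not tested. In the alternative fits signs turned for Scn10a with limma-voom (log2 0.18) and with the run as a covariate (0.10), and, with 1 library left out, Cacna1g (from -0.17 to 0.069 over the 7 libraries), Cacna2d4 (-0.23 to 0.028), Scn2a1 (-0.088 to 0.026) and Scn8a (-0.17 to 0.063). Of the log2 differences of members in the alternative fits, 326 kept sign and side of the threshold, 14 lost the call, 8 gained it and 11 turned sign. Of the values within a run, which carry no test, 47 kept the sign of the fit over all libraries and lay within the spread of the controls, 3 kept it and moved by more (Cacnb1, Scn9a and Scn2b), and 6 turned it: Cacna1b (0.01), Cacna1c (0.12), Cacna1g (0.05) and Scn4b (-0.15) in libraries 2, 3 and 5, and Cacna2d4 (0.11) and Scn10a (0.64) in libraries 10 to 13. With the longest transcript in place of all exons, 15 levels per length and 15 shares moved by more than 1 SD. The order of the alpha1 genes became Cacna1a, Cacna1e, Cacna1i, Cacna1b in controls. In mutants it became Cacna1a, Cacna1e, Cacna1b, Cacna1g, Cacna1i. Cacnb3 then made up 52.5% of its class in controls and 42.1% in mutants, and Cacna1a 26.5% and 36.4%. Depth limits the members Scn4a, Scn10a, Scn11a and Cacna1f, at 25 counts or fewer in every library, and with 3 mutant pools an adjusted p that missed the threshold does not show equal levels.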
